A study of Mus musculus with 6 samples.

Results

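Long-term hematopoietic stem cells are recognised by a small group of receptors and cell-associated proteins, and 9 genes of that group are described here: Slamf1, Procr, Kit, Tek, Esam, Robo4, Ly6a, Fgd5 and Ctnnal1. They were chosen by name, and every probe set of the array whose only annotated symbol was one of these names was read. That gave 12 probe sets of 8 genes, out of 45037 probe sets and 18193 genes on the array. Ly6a, the gene of Sca-1, is not analysed here.

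The cells were male C57Bl/6 (CD45.1) mouse bone marrow stem cells, 10 weeks of age, sorted as Lineage-, Sca-1+ and c-Kit+ cells from the lower end (Lower-SP) or the upper end (Upper-SP) of the side population, the gate on cells that export a DNA-binding dye. Each fraction was hybridised to 3 expression arrays, 1 for each pool of mice, and this small number of arrays sets the precision. Since both fractions were gated on c-Kit and Sca-1 protein, these surface antigens are part of what every sample shares. Values are log2 expression as the authors deposited them, each difference is the Lower-SP mean minus the Upper-SP mean on that scale, and only probe sets brighter than log2 4 in 3 or more of the 6 samples were tested.

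As background, KIT is the receptor tyrosine kinase for stem cell factor, and TIE2, the product of Tek, is the receptor tyrosine kinase for angiopoietins; both receive signals from the bone marrow niche. CD150 (Slamf1) is a SLAM-family receptor used to divide the stem cell pool, and the endothelial protein C receptor (Procr) binds activated protein C. ESAM is a junctional adhesion molecule, ROBO4 a roundabout receptor, FGD5 an exchange factor of the CDC42 family of small GTPases, and Ctnnal1 encodes alpha-catulin, a relative of alpha-catenin and vinculin. Several of these genes are also expressed by endothelial cells.

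The markers did not move together between the fractions. Ctnnal1 rose in Lower-SP, Kit and Robo4 fell, and Slamf1, Procr, Tek, Esam and Fgd5 did not pass the test. Thus 1 of 8 tested genes was higher and 2 were lower, where 7.05% of all 9460 tested genes were higher and 20.7% lower (27.7% in either direction), at an adjusted p under 0.05. As deposited, 667 genes of the whole array were higher and 1958 lower, against 841 and 1555 with quantile normalization and 923 and 1372 with cyclic loess. The median difference of the 8 genes was -0.20, and that of all tested genes was -0.24. The arrays of the fractions did not overlap for 3 of the 8 genes, against 45.7% of all tested genes. Read over the 9 tested probe sets, 1 was higher (10.7% of all tested probe sets), 2 were lower (17.5%), making 3 in either direction (28.1%), and 3 were without overlap (46.1%).

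**Figure D1:**
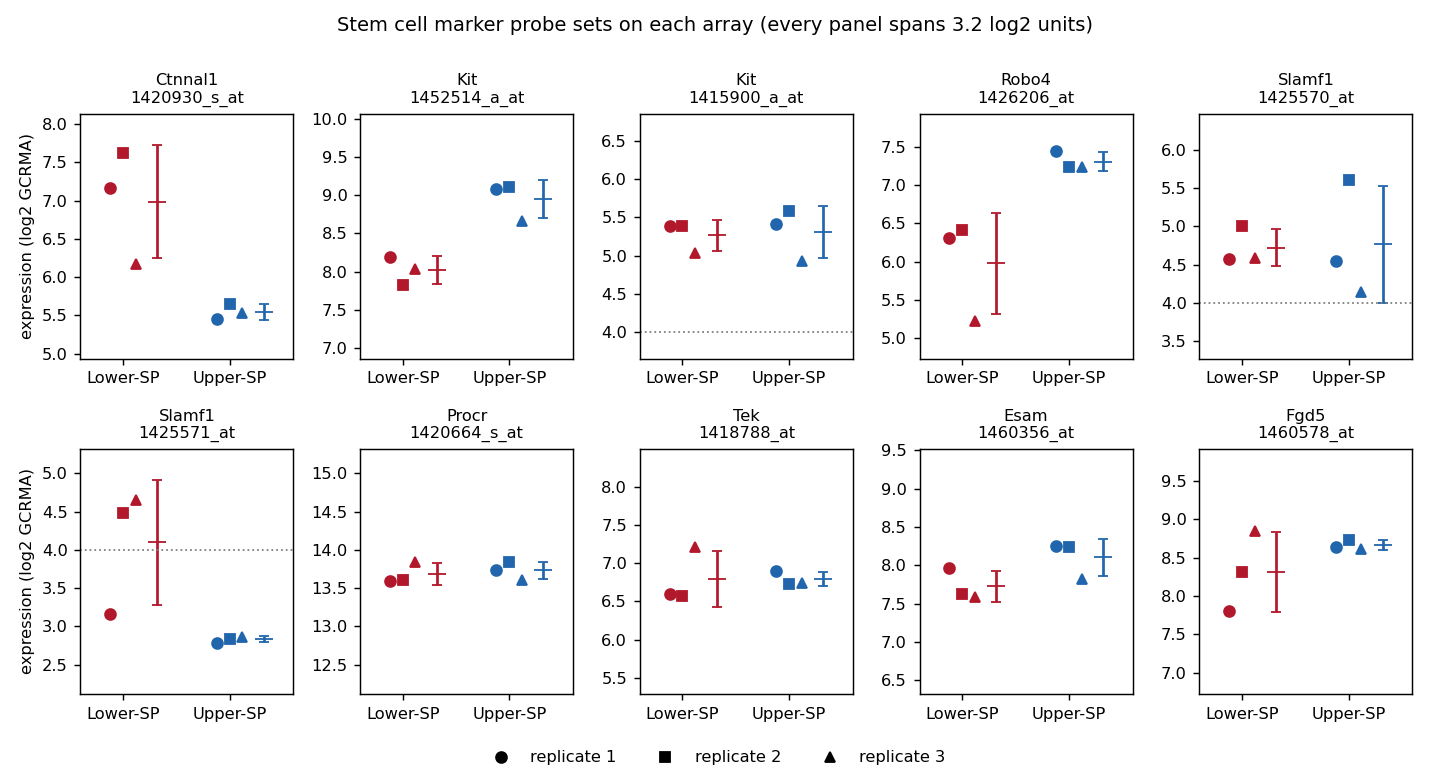
Expression (log2, vertical axis) of 10 probe sets of the 8 marker genes on the 3 Lower-SP arrays (red, left) and the 3 Upper-SP arrays (blue, right), with symbols for the replicate number, bars for mean ± SD (n = 3) and a dotted line at log2 4. Each panel spans the same number of log2 units. Ctnnal1, the brighter Kit probe set, Robo4 and the dim Slamf1 probe set 1425571_at are separated between the fractions, and the other panels overlap.

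Kit fell in Lower-SP at its brighter probe set. Probe set 1452514_a_at read 8.19, 7.83 and 8.03 in the Lower-SP samples, against 9.07, 9.10 and 8.66 in the Upper-SP samples. All Lower-SP arrays lay under all Upper-SP arrays, with a gap of 0.46 between the nearest arrays. The means were 8.02 ± 0.18 in Lower-SP and 8.94 ± 0.25 in Upper-SP (SD, n = 3 each), a difference of -0.92 (SE 0.20, 95% confidence interval -1.38 to -0.46, adjusted p = 0.014), or 1.90-fold lower. Both fractions were sorted as c-Kit+ cells. In sorted bulk samples, fewer cells of a type and less RNA per cell cannot be told apart.

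The second Kit probe set, 1415900_a_at, did not show this difference. It read 5.39, 5.38 and 5.03 in the Lower-SP samples, against 5.42, 5.58 and 4.94 in the Upper-SP samples, and the fractions overlapped. Its difference was -0.04 (SE 0.25, 95% confidence interval -0.63 to 0.54, adjusted p = 0.91). The change at the brighter probe set exceeded that at the dimmer one by -0.88, and the array-by-array contrast of the 2 probe sets separated the fractions (exact permutation test, two-sided, p = 0.1, the smallest that 3 against 3 arrays allow; this contrast was chosen after the values were seen). The Kit result therefore rests on 1 of 2 probe sets.

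Robo4, which takes part in anchoring stem cells in the marrow, fell by 1.33 in Lower-SP. Its probe set 1426206_at read 6.31, 6.41 and 5.22 in the Lower-SP samples, against 7.45, 7.24 and 7.23 in the Upper-SP samples. The fractions did not overlap, and Lower-SP replicate 3 was the lowest array by more than 1 log2 unit. The means were 5.98 ± 0.66 in Lower-SP and 7.30 ± 0.12 in Upper-SP (SD, n = 3 each; SE of the difference 0.34, 95% confidence interval -2.11 to -0.54, adjusted p = 0.024), or 2.51-fold lower. Without Lower-SP replicate 3 the difference was -0.95 and still passed (adjusted p = 0.015).

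Ctnnal1 rose by 1.44 in Lower-SP, 2.71-fold. Probe set 1420930_s_at read 7.17, 7.62 and 6.17 in the Lower-SP samples, against 5.46, 5.65 and 5.53 in the Upper-SP samples, again without overlap. The means were 6.99 ± 0.74 in Lower-SP and 5.55 ± 0.10 in Upper-SP (SD, n = 3 each; SE of the difference 0.37, 95% confidence interval 0.59 to 2.29, adjusted p = 0.025). The spread lay in Lower-SP, where replicates 1 and 2 read well above replicate 3. A second Ctnnal1 probe set, 1420929_at, lay between 2.33 and 2.39 on all 6 arrays and was not tested, so here too the result rests on 1 probe set.

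Lower-SP replicates 1 and 2 also carried neutrophil transcripts. Of 15 neutrophil markers 8 were tested, 4 were higher in Lower-SP and 1 was lower, where 7.05% of all tested genes were higher and 20.7% lower. Among granule protease genes, Elane and Ctsg stayed at or below 2.64 on every array. Prtn3, the lower gene, was bright, at 11.47 on average in Lower-SP and 12.07 in Upper-SP. The 15 measured neutrophil marker genes averaged 7.08, 6.68 and 4.73 in the Lower-SP samples, against 4.49, 4.65 and 3.97 in the Upper-SP samples. With these 2 arrays left out, so that Lower-SP was represented by replicate 3 alone and was assumed to vary like Upper-SP, Ctnnal1 differed by 0.62 (adjusted p = 0.16) and the brighter Kit probe set by -0.91 (adjusted p = 0.081). Robo4 differed by -2.09 in the same comparison (adjusted p = 0.021). The part of neutrophil RNA in the Ctnnal1 difference was not tested.

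**Figure D2:**
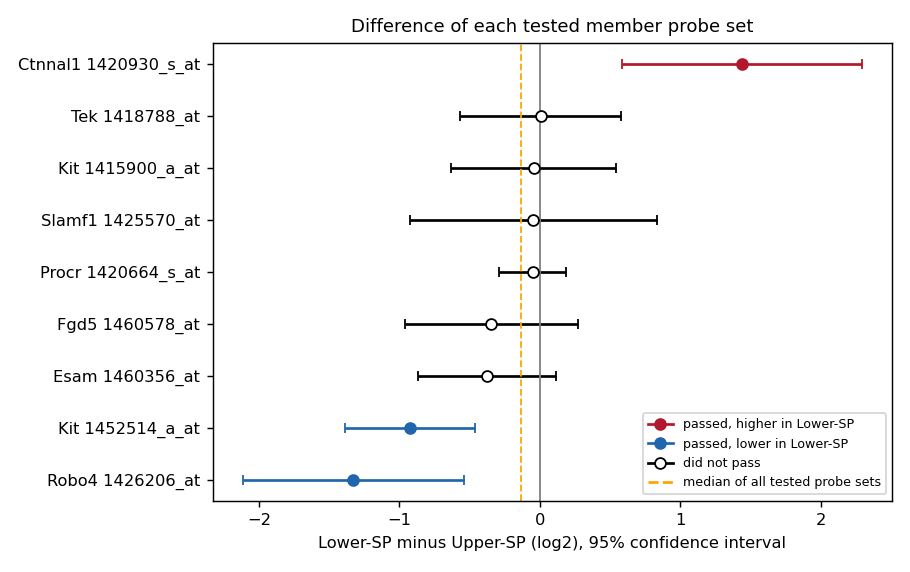
Difference between the fractions (Lower-SP minus Upper-SP, log2, horizontal axis) for the 9 tested marker probe sets, with 95% confidence intervals from the fit across all probe sets. The intervals of Ctnnal1, the brighter Kit probe set and Robo4 exclude 0, the other 6 include it, and the dashed line is the median of all tested probe sets, -0.14.

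The sequences upstream of the 3 genes that passed are shown because these genes moved in opposite directions and their promoters differ in composition. Each run is the 250 bases before the annotated start, 5′ to 3′ on the strand of the gene (RefSeq, GRCm38.p6): chr4:56865212-56865461, minus strand, for Ctnnal1, chr5:75574737-75574986, plus strand, for Kit, and chr9:37401722-37401971, plus strand, for Robo4. Capitals mark matches, on either strand, to the GC box GGGCGG, the ETS family motif AGGAAG, the GATA family motif AGATAA, the RUNX family motif TGTGGT or the E box CAGCTG. None of these motifs contains another.
Ctnnal1: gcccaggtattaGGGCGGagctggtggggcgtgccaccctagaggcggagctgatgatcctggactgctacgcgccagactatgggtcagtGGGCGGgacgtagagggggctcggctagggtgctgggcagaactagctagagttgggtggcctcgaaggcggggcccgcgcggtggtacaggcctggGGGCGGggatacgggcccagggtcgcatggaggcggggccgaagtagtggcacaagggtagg
Kit: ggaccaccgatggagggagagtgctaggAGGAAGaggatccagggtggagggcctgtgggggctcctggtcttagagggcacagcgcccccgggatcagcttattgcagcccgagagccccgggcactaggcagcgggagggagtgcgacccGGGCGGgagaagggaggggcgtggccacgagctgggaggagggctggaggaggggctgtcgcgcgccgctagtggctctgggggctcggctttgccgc
Robo4: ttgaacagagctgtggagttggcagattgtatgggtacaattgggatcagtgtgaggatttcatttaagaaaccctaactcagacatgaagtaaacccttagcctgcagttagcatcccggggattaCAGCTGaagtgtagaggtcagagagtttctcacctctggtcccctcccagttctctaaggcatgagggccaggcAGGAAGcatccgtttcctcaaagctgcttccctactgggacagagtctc

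The Ctnnal1 promoter held 3 GC boxes and none of the other motifs. The Kit promoter held 1 GC box and 1 ETS match, and the Robo4 promoter 1 ETS match and 1 E box. No matches overlapped one another. Of 32851 promoter windows of the same length, 32.7% held the GC box, 29.5% the ETS motif, 9.99% the GATA motif, 14% the RUNX motif and 13% the E box. GC content was 68.4% for Ctnnal1 and 70.8% for Kit, against 49.6% for Robo4 and a median of 52.4% over all windows. CpG pairs numbered 18, 17 and 2 in that order of genes, with a median of 6.

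Promoters of 7 of the genes were in the table. Among the genes that did not pass, Fgd5 had 71.6% GC with 5 GC boxes and 31 CpG pairs, and Procr 61.6% GC with 1 E box. Slamf1 (47.2% GC, 1 ETS match) and Tek (51.2% GC, no match to any of the 5 motifs) had 3 and 2 CpG pairs. GC-rich and GC-poor promoters thus occurred both among genes that passed and among those that did not.

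Slamf1 gave different readings at its 3 probe sets. The 1 that was tested, 1425570_at, read 4.57, 4.999 and 4.58 in the Lower-SP samples, against 4.55, 5.61 and 4.14 in the Upper-SP samples, close to the level for testing. The fractions overlapped throughout, with the highest and the lowest array both in Upper-SP. The difference was -0.05 (SE 0.38, 95% confidence interval -0.93 to 0.83, adjusted p = 0.94). 

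At Slamf1 probe set 1425571_at the fractions were separated. It read 3.17, 4.48 and 4.65 in the Lower-SP samples, against 2.79, 2.84 and 2.87 in the Upper-SP samples. Only Lower-SP replicates 2 and 3 lay above log2 4, so the probe set was not tested, and with the Upper-SP arrays taken at log2 4 the Lower-SP mean was at least 1.07-fold higher. In a fit of all probe sets without the filter it did not pass (adjusted p = 0.12). Its array-by-array contrast with the tested probe set 1425570_at overlapped between the fractions (exact permutation test, two-sided, p = 0.2). This contrast was chosen after the values were seen. The third probe set, 1425569_a_at, lay between 2.31 and 2.39 on all arrays.

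Procr varied little between arrays. Probe set 1420664_s_at read 13.59, 13.61 and 13.84 in the Lower-SP samples, against 13.74, 13.84 and 13.61 in the Upper-SP samples, a range of 0.25 over all 6. The difference was -0.05 (SE 0.10, 95% confidence interval -0.29 to 0.19, adjusted p = 0.74), the narrowest interval among the 9 tested probe sets. It turned positive with each other scaling of the arrays (0.034 with quantile normalization, 0.038 with median centring, 0.15 with cyclic loess). None of these values passed. The probe set lay at the 99.4th percentile of mean signal on the array, and whether it was near saturation was not tested.

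Tek read 6.60, 6.57 and 7.21 in the Lower-SP samples, against 6.89, 6.73 and 6.74 in the Upper-SP samples at probe set 1418788_at. Lower-SP replicate 3 stood above every other array, and the other 2 Lower-SP arrays lay below all of Upper-SP. The means, 6.79 ± 0.36 in Lower-SP and 6.79 ± 0.09 in Upper-SP, gave a difference of 0.01 (SE 0.25, 95% confidence interval -0.57 to 0.58, adjusted p = 0.99). Without Lower-SP replicate 3 it was -0.20 and did not pass.

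Fgd5, like Tek, was highest on Lower-SP replicate 3. It read 7.80, 8.31 and 8.84 in the Lower-SP samples, against 8.64, 8.74 and 8.61 in the Upper-SP samples at probe set 1460578_at. The Lower-SP arrays spanned the Upper-SP arrays on both sides, with replicates 1 and 2 below and replicate 3 above. The difference was -0.34 (SE 0.27, 95% confidence interval -0.96 to 0.27, adjusted p = 0.36). It turned to 0.18 when Lower-SP replicates 1 and 2, the arrays with the highest average of neutrophil markers, were left out.

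Esam did not pass. Its probe set 1460356_at read 7.96, 7.62 and 7.59 in the Lower-SP samples, against 8.25, 8.23 and 7.83 in the Upper-SP samples. Lower-SP replicate 1 overlapped Upper-SP replicate 3, and the other Lower-SP arrays lay under all of Upper-SP. The difference was -0.38 (SE 0.21, 95% confidence interval -0.87 to 0.11, adjusted p = 0.22). With array weights, which give less weight to arrays that deviate more, Esam (-0.49, adjusted p = 0.024) and Fgd5 (-0.46, adjusted p = 0.048) passed, in a fit that called 1301 genes higher and 3967 lower over the whole array.

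**Figure D3:**
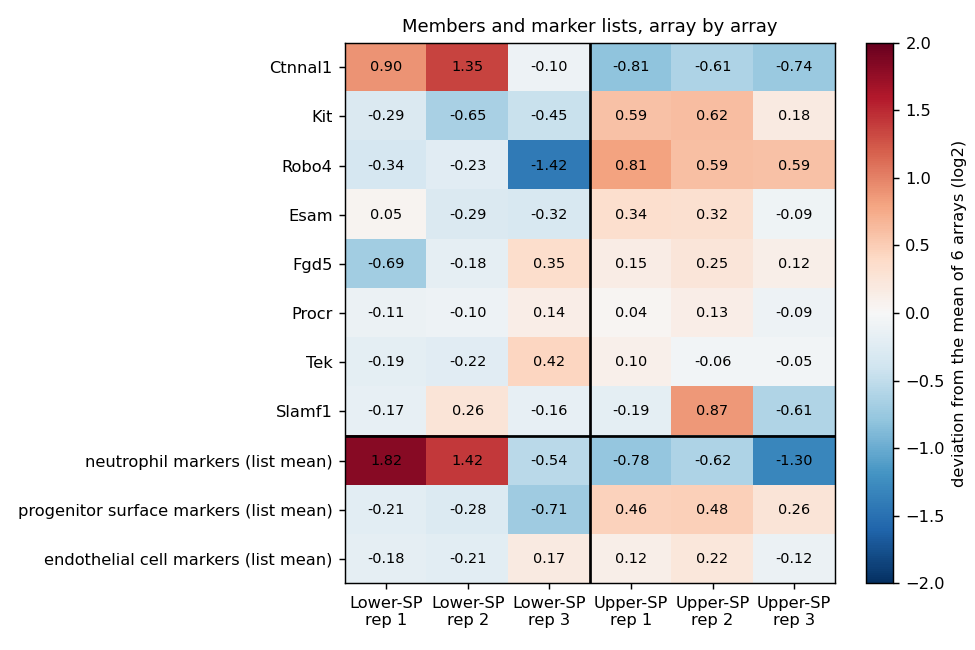
Deviation of each array from the mean of the 6 arrays (log2, colour and printed value) for the 8 marker genes and for the average of 3 marker lists, with Lower-SP arrays on the left and Upper-SP arrays on the right. Robo4 is lowest on Lower-SP replicate 3 (-1.42), Ctnnal1 is highest on Lower-SP replicate 2 (1.35), and Fgd5 and Tek are highest on Lower-SP replicate 3 (0.35 and 0.42), where the neutrophil list (-0.54) is far below its level on the other Lower-SP arrays.

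Some markers varied together from array to array and others did not. Over the 6 arrays Kit correlated with Esam at r = 0.90 and with Robo4 at 0.80, and with Ctnnal1 at -0.84. Procr correlated with Fgd5 at 0.76 and with Tek at 0.73, while Tek and Robo4 stood at -0.47. These are descriptions over 6 arrays that share the 2 fractions and the same normalization. By the same measure over 9460 genes, the gene most like Kit was Tbc1d10c (r = 0.998), for Robo4 it was Cep20 (0.999) and for Ctnnal1 Zfp354c (0.993). Among the markers that did not pass, Slamf1 was most like Tsc22d2 (0.948), Procr like Gfpt2 (0.995) and Tek like Sufu (0.991). Esam was most like Ndufs1 (0.993) and Fgd5 like Timmdc1 (0.995).

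Robo4 and Esam are near neighbours on chromosome 9, with 2 protein-coding genes between them in the RefSeq order. Of those 2, Robo3 lay too low to test and Msantd2 differed by 0.11 (adjusted p = 0.78). Beyond Esam, Vsig2 differed by -1.09 (adjusted p = 0.053) and Nrgn by 0.27 (adjusted p = 0.29). No direction was shared across the stretch. These neighbours were looked up after the values of Robo4 and Esam were seen.

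Partner genes of the marker pathways were read from 9 lists. Of 151 matched genes 90 were tested, 9 were higher in Lower-SP and 14 lower, with a median difference of -0.13, where 7.05% and 20.7% of all tested genes were higher and lower. The ligand of KIT, Kitl, lay at or below 2.71 on every array and was not tested. Among 27 tested genes of KIT signalling 3 were higher and 6 lower. Pik3r1, the regulatory subunit of phosphoinositide 3-kinase, rose by 1.40 (9.35 ± 0.23 in Lower-SP, 7.94 ± 0.10 in Upper-SP, adjusted p = 0.0033, with 1.20 at a second probe set that did not pass), and Spred1, an inhibitor of RAS-MAP kinase signalling, rose by 1.81 (adjusted p = 0.0035), although its other 3 tested probe sets did not pass. Ptpn6, the phosphatase SHP-1 that restrains KIT, fell by 1.21 (7.65 ± 0.29 in Lower-SP, 8.85 ± 0.30 in Upper-SP, adjusted p = 0.0100), with -0.29 at a second probe set that did not pass.

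Of 8 tested TIE2 signalling genes 1 was higher and 2 were lower (7.05% and 20.7% of all tested genes), while Tek itself differed by 0.01. Angpt1, the activating ligand of TIE2, read 9.80, 9.91 and 9.92 in the Lower-SP samples, against 10.76, 10.81 and 10.82 in the Upper-SP samples. It fell by 0.92 (SE 0.12, adjusted p = 0.0033), with little spread in either fraction. Ptpn11, the phosphatase SHP-2, which acts downstream of both KIT and TIE2, fell by 0.73 (adjusted p = 0.0083), with 1.20 at a dimmer probe set that did not pass. The adaptor Nck1 rose by 2.70 at its brightest probe set, where it averaged 8.51 ± 0.21 in Lower-SP and 5.81 ± 0.59 in Upper-SP (adjusted p = 0.0026), and by 0.81 at another. The remaining tested Nck1 probe set also passed, but averaged 4.74 in Lower-SP and 2.44 in Upper-SP, under the level for testing, so its size is not read.

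**Figure D4:**
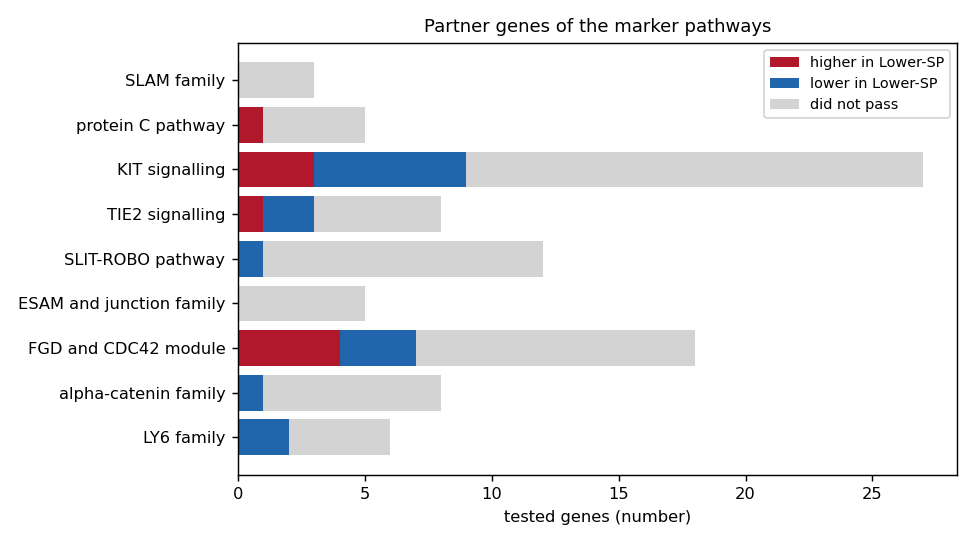
Number of tested partner genes (horizontal axis) in each of 9 lists, split into those higher in Lower-SP, those lower in Lower-SP and those that did not pass. KIT signalling (3 higher, 6 lower of 27) and the FGD and CDC42 module (4 higher, 3 lower of 18) hold most of the genes that passed. They are also the lists with the most tested genes, and 27.7% of all tested genes passed.

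In the FGD and CDC42 module 4 of 18 tested genes were higher and 3 lower, where 7.05% of all tested genes were higher and 20.7% lower. Fgd2, a relative of Fgd5, fell by 1.58 (5.66 ± 0.38 in Lower-SP, 7.23 ± 0.28 in Upper-SP, adjusted p = 0.0074). The CDC42-binding kinase gene Cdc42bpa rose by 1.75 (5.28 ± 0.44 in Lower-SP, 3.53 ± 0.50 in Upper-SP, adjusted p = 0.0090), with -0.13 at another probe set that did not pass. Of its Upper-SP arrays 2 lay under the level for testing, and with values under log2 4 set to 4 the difference was 1.27 (adjusted p = 0.0084). With Lower-SP replicates 1 and 2 left out the module had 1 gene higher and 1 lower.

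The remaining partner lists are short, and their counts stand beside 7.05% of all tested genes higher and 20.7% lower. In the protein C pathway 1 of 5 was higher, F2r, the thrombin receptor PAR1, by 0.82 (13.63 ± 0.14 in Lower-SP, 12.81 ± 0.40 in Upper-SP, adjusted p = 0.018), with 0.33 at another probe set. In the SLIT-ROBO pathway 1 of 12 was lower, the actin regulator Evl, by -1.35, but a second Evl probe set was 1.78 higher and passed as well. In the alpha-catenin family 1 of 8 was lower, Ctnnd1, the p120 catenin gene, by -1.09 (adjusted p = 0.027). None of the 3 SLAM family genes and none of the 5 junction family genes passed with limma at its brightest probe set (2 and 0 at an unadjusted p under 0.05), while 2 of each family were lower without Lower-SP replicate 3 and with array weights. Cd84 differed by -0.57 (adjusted p = 0.067) and rose by 0.83 at a second probe set, which passed (adjusted p = 0.045). Mpdz differed by 0.08 (adjusted p = 0.78) and rose by 2.01 at a second probe set, which also passed (adjusted p = 0.0063). Ly9 differed by -1.06 (adjusted p = 0.061) with 2 of its Lower-SP arrays under the level for testing, and by -0.32 with values under log2 4 set to 4. Jam3 differed by -0.96 (adjusted p = 0.17). Of 6 LY6 family and GPI-anchor genes 2 were lower, the GPI transamidase subunit Gpaa1 (-1.08, with -0.25 at another probe set) and Ly6e (-0.57), for which a second probe set was 1.08 higher and passed.

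Markers of other cells were read beside these genes. Of 20 endothelial markers 7 were tested, with Eng higher, Egfl7 lower and Tie1, Icam2, Cldn5, Plvap and Mmrn2 not passing. Cldn5 read 4.97, 4.89 and 6.45 in the Lower-SP samples, against 5.18, 5.05 and 5.55 in the Upper-SP samples. Ramp2 and Kdr, which were not tested, were likewise highest on Lower-SP replicate 3, at 4.59 and 4.94. Tek and Fgd5 were highest on that array too. Other endothelial markers went the other way, with Plvap (3.97) and Icam2 (8.70) at their lowest on Lower-SP replicate 3. Tie1 was highest on Upper-SP replicate 2 (7.51). The part of endothelial RNA in the Tek and Fgd5 readings was not tested. Of the list, Cdh5, Pecam1, Flt1 and Sox17 stayed at or below log2 2.55 on every array. Emcn and Ptprb, also not tested, reached 4.511 and 4.525, both on Upper-SP replicate 2. The endothelial list averaged 4.16 to 4.55 in Lower-SP and 4.26 to 4.60 in Upper-SP, with Eng, a TGF-beta co-receptor, higher by 1.03 (adjusted p = 0.020; 0.03 at a second probe set, adjusted p = 0.94). Egfl7 differed by -0.75 (adjusted p = 0.025), and of 3 other tested Egfl7 probe sets 1 passed, at -1.08. The Egfl7 call missed the threshold in 9 of 18 other settings, among them quantile normalization, cyclic loess and the replicate block. Mast cells keep KIT when mature. Of 11 measured mast cell markers 2 were tested and neither passed. Srgn, the serglycin gene, read 13.88 to 14.27 over the arrays, unlike most of the list, and differed by -0.19 (adjusted p = 0.13). Ms4a2, Fcer1a and Tpsb2 stayed under the level for testing, and the list averaged 3.91 to 4.07 in Lower-SP and 3.98 to 4.08 in Upper-SP. The 10 measured lineage panel genes averaged 3.16 to 3.37 in Lower-SP and 3.17 to 3.21 in Upper-SP. Of these 2 were tested, Cd79b and Ms4a1, and neither passed. Cd79b lay well above the list average, at 7.64, 7.41 and 6.29 in the Lower-SP samples, against 7.61, 7.68 and 7.15 in the Upper-SP samples.

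The calls for Kit, Robo4 and Ctnnal1 were kept with each other scaling of the arrays and lost with fewer arrays. Over quantile normalization, median centring and cyclic loess Kit ranged from -0.84 to -0.76, Robo4 from -1.25 to -1.24 and Ctnnal1 from 1.49 to 1.53. Without Upper-SP replicate 1 none of the 3 passed (adjusted p = 0.076 for Kit, 0.10 for Robo4 and 0.099 for Ctnnal1), and the same held without Upper-SP replicate 2 (adjusted p = 0.060, 0.071 and 0.068). Over the whole array 270 genes were higher and 425 lower without Upper-SP replicate 1. Kit was also lost without Lower-SP replicate 2, Robo4 without Upper-SP replicate 3, and Ctnnal1 when any 1 array other than Lower-SP replicate 3 was left out, although the differences themselves stayed between -1.07 and -0.83, -1.54 and -0.95, and 1.12 and 1.85. Of 25 named partner and cell marker genes that passed with all arrays, 17 were kept when Lower-SP replicate 2 was dropped, 11 on dropping Upper-SP replicate 1 and 16 on dropping Upper-SP replicate 2. Using Lower-SP replicate 3 alone against all of Upper-SP, 14 were kept, among them Angpt1, Pik3r1, Ptpn6, Spred1 and Nck1.

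**Figure D5:**
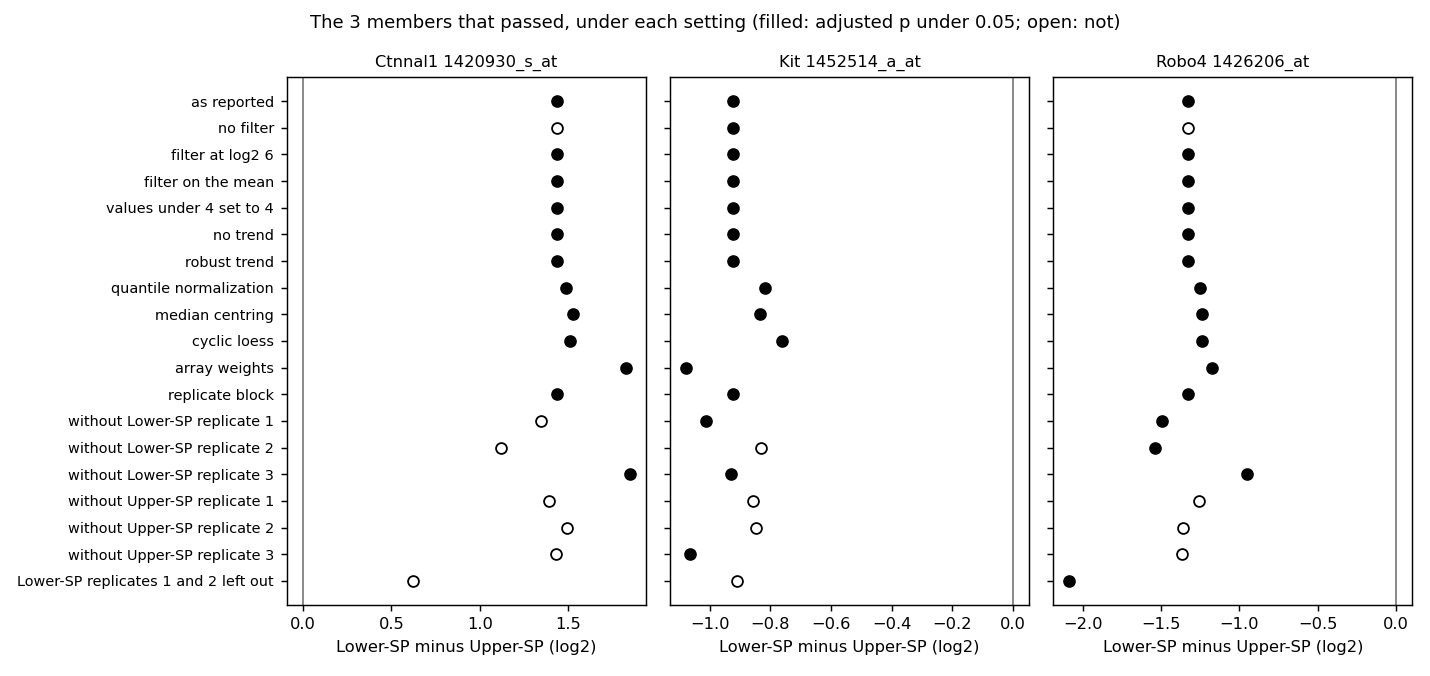
Difference between the fractions (Lower-SP minus Upper-SP, log2, horizontal axis) for Ctnnal1, Kit and Robo4 under each processing setting (vertical axis), with filled points for an adjusted p under 0.05 and open points otherwise. No setting changes the direction of these 3 differences, and most open points belong to settings that leave out an array.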

How the data were processed

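RNA of sorted cells was amplified by repeated in vitro transcription, labelled with biotin and hybridised to Affymetrix mouse arrays, per the labels. The deposited values are log2 expression per probe set; the authors used GCOS 1.0 and GCRMA, per the submitters' processing notes, with no parameters given. GCRMA corrects background by probe sequence, and dim probe sets form a band; array medians were 3.34 to 3.45. The sources used here give no genome build.

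Of 45037 probe sets (64 controls left out), 34945 carried 1 symbol in the platform annotation, 932 several and 9160 none. Each array had 19317 to 19666 probe sets above log2 4; between arrays r was 0.952 to 0.991 within and 0.911 to 0.938 between fractions, and 0 pairs were identical. The 19613 probe sets above log2 4 on at least 3 arrays were compared with limma 3.58.1 in R 4.3.3 (lmFit, eBayes with a trend, two-sided, no replicate block), with Benjamini-Hochberg adjustment over all of them at 0.05. A gene was read through its brightest tested probe set. The fit was tested on simulated data.

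The members and the lists were chosen with earlier results of these data known. Named are all members with a probe set, up to 3 passing genes of each list with the largest difference (or the 1 with the smallest p) and the gene most like each tested member. One gene that this rule names is not reported here. Kitl, the neighbours of Robo4 and Esam, second probe sets of Cd84 and Mpdz, and other cell markers were named after their values were seen. The design text gives 3 pools of mice handled on different days and ties no replicate number to a pool. By the values, arrays of equal number showed no shared deviation (correlations of deviations -0.05, -0.03 and -0.02). This cannot settle whether they shared a pool. Alternatives were other filters, variance priors, scalings, array weights, a replicate block, other gene representatives and arrays left out.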

Additional observations from a re-analysis of the deposited data

How the results depend on the processing

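With no filter, 0 member genes and 0 member probe sets were higher and 1 and 1 lower, beside 386 higher and 932 lower genes in all. Why fewer genes passed without the filter was not tested. With array weights 4 member genes and 4 member probe sets were lower, all genes numbered 1301 higher and 3967 lower, and partner genes 14 higher and 35 lower. With Lower-SP replicates 1 and 2 left out, 0 members were higher and 1 lower, for genes as for probe sets, with 409 and 788 of all genes and 9 partner genes lower. Partner genes higher numbered 14 with cyclic loess and 18 with the probe set of largest variance. Without _x_at and _s_at probe sets 0 member genes were higher, since Ctnnal1 is read through an _s_at set, and with the mean of a gene's probe sets 1 was lower. Leaving out 1 array at a time gave 0 to 1 member genes higher and 0 to 2 lower (the same ranges for probe sets), 270 to 791 of all genes higher and 425 to 2294 lower, and 3 to 10 partner genes higher and 7 to 22 lower. With the replicate block all member calls were kept: Kit -0.92 (adjusted p = 0.037), Robo4 -1.33 (0.039) and Ctnnal1 1.44 (0.039), with 510 of all genes higher and 1418 lower. Since no replicate number is tied to a pool, this cannot be read as a paired result.

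Directions that turned belong to differences that did not pass. Slamf1 1425570_at was 0.042 with centring, 0.16 with array weights and -0.36 to 0.38 over the arrays left out. Procr was 0.034 with quantile normalization, 0.038 with centring, 0.15 with cyclic loess, 0.11 with Lower-SP replicates 1 and 2 left out and -0.13 to 0.004 over single arrays. Kit 1415900_a_at was 0.045 with centring and -0.23 to 0.092 over single arrays. Tek was -0.22 with array weights and -0.20 to 0.12 over single arrays. Fgd5 was 0.18 and Jam3 0.24 with Lower-SP replicates 1 and 2 left out, and Srgn, from the mast cell list, was 0.008 with cyclic loess. The causes were not tested. The median difference of all genes moved from -0.24 to -0.12 with cyclic loess.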

Other observations

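Of 32 tested genes on a list of other long-term stem cell markers, 4 were higher in Lower-SP and 8 lower, with a median difference of -0.09, where 7.05% of all tested genes were higher and 20.7% lower (6 and 5 with cyclic loess). Neo1, the receptor neogenin, rose at both tested probe sets, by 1.64 (9.40 ± 0.19 in Lower-SP, 7.76 ± 0.29 in Upper-SP, SD, n = 3 each) and by 2.59. Clu, a secreted chaperone, rose by 2.18 at its brightest probe set (adjusted p = 0.018) and passed at 2 of the other 3. Gfi1, a transcriptional repressor, fell by 1.92 (6.46 ± 0.84 in Lower-SP, 8.38 ± 0.17 in Upper-SP, adjusted p = 0.012).

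Of 10 tested progenitor surface markers, 8 were lower in Lower-SP and 1 higher, beside the same shares of all tested genes. The counts were 7 and 1 with cyclic loess, and 4 and 0 without Upper-SP replicate 1. This list was chosen with these results known and also holds myeloid receptor genes. Of these, Csf2ra (-0.88) and Csf3r (-0.74) were among the lower genes, and Csf1r (1.06) was the higher one. Flt3 read 8.70, 8.76 and 7.82 in the Lower-SP samples, against 10.74, 10.65 and 10.56 in the Upper-SP samples. Lower-SP replicate 3 was the lowest array for Flt3, as it was for Robo4. Tnfrsf18 differed by -1.57 and Emb by -1.43, both past the threshold. Of 8 tested neutrophil genes 4 were higher and 1 lower, where 7.05% of all tested genes were higher and 20.7% lower. The number higher was 0 with no filter, without Lower-SP replicate 2 or without Upper-SP replicate 1. It was 1 without Upper-SP replicate 2 and 7 without Lower-SP replicate 3. S100a8 read 13.19, 12.60 and 9.16 in the Lower-SP samples, against 7.62, 7.87 and 6.95 in the Upper-SP samples. S100a9 was 3.90 higher (adjusted p = 0.030). Chil3 read 9.74, 8.85 and 4.94 in the Lower-SP samples, against 3.16, 3.17 and 3.25 in the Upper-SP samples, all of the Upper-SP values under log2 4. The lower gene was Prtn3 (-0.60, adjusted p = 0.0067), which read 11.45, 11.55 and 11.42 in the Lower-SP samples, against 12.11, 12.12 and 11.99 in the Upper-SP samples. Elane and Ctsg stayed at or below 2.64 on every array. Prtn3, Elane and Ctsg were named after their values were seen. The B cell antigen gene Ms4a1 differed by 0.42 (adjusted p = 0.18).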
